A study of Mus musculus with 24 samples.

Results

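A group of 10 imprinted growth genes was described across 24 arrays of mouse skeletal muscle: Igf2, H19, Igf2r, Meg3, Rian, Peg3, Zim1, Plagl1, Mest and Cdkn1c. The members were selected on their symbols, with earlier measured changes of these data known. For each the probe set (the group of probes that reads one transcript) was taken that was annotated to that symbol alone and had the highest mean over all arrays. The one measured value in this rule, the mean log2 intensity, chose nothing: 9 of the 10 genes had a single such probe set. No probe set was listed under H19 alone in the annotation used here, and H19 was not analysed. The 9 measured genes were among 19938 genes with a probe set of their own, and all 9 were among the 15999 genes kept after dim genes were removed. A gene was kept when it lay above the 30th percentile of its array on at least 6 of the 24 arrays.

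The arrays fell into 4 groups of 6, from male mice aged 40 to 42 days. The groups were quadriceps of nebulin conditional knockout (cKO) mice, quadriceps of control mice, soleus of cKO mice and soleus of control mice. Same-numbered quadriceps and soleus arrays were taken as muscles of the same animal, a pairing that the main tests did not use. All mice, controls included, carried the conditional nebulin allele on both chromosomes, on a mixed background of C57BL/6J and 1219S6/SvEvTac as the labels spell it. The cKO mice also carried a single dose of the MCK-Cre transgene, which the controls lacked. MCK is muscle creatine kinase, whose promoter is active in differentiated striated muscle. Nebulin is the giant protein that runs along the thin filament of the skeletal muscle sarcomere. According to the submitters, the quadriceps was markedly smaller in cKO mice and the soleus was not significantly smaller, and the samples of each group were biological replicates.

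Imprinted genes are read mainly from one of the parental chromosomes, as set by DNA methylation laid down in the germ line. Igf2, Peg3, Mest and Plagl1 are paternally expressed, and H19, Igf2r, Meg3, Rian, Zim1 and Cdkn1c are maternally expressed, in mouse. Many of these genes are strongly expressed in fetal tissues and decline after birth, and several act on growth. In skeletal muscle, Igf2 is known for promoting myoblast differentiation and Cdkn1c for cell cycle exit during it. The arrays read total RNA and cannot tell the parental copies apart.

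Array values are given as log2 intensity. The correlation of arrays within a group ranged over 0.96 to 0.99, no arrays were identical, and array medians lay between 4.74 and 4.94. Neb itself averaged 10.84 ± 0.23 in cKO and 12.29 ± 0.17 in control quadriceps, and 11.24 ± 0.20 in cKO and 12.38 ± 0.21 in control soleus (SD, n = 6 each). The control muscles differed in fibre type genes. Over 6 slow fibre genes the summed intensity in controls was 22764 to 32333 in soleus and 2609 to 7380 in quadriceps. Over 7 fast fibre genes it was 12191 to 24813 in soleus and 40002 to 45605 in quadriceps. Control quadriceps replicates 4 and 6 and control soleus replicate 1 had the lowest array quality weights, at 0.207, 0.389 and 0.394. Leaving out those 3, the 8 genes other than Rian were still called higher in cKO in both muscles. Rian is left out here because it was kept only with the help of cKO arrays.

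The genes lie on 5 chromosomes of the mouse genome (positions from RefSeq, build GRCm38.p6), and several are neighbours. On chromosome 7, a gap of 7.35 kb lies between Zim1 and Peg3, of 72.6 kb between H19 and Igf2, and of 792 kb between Igf2 and Cdkn1c. On chromosome 12, Meg3 ends 32.2 kb before Rian starts. The promoters of the group were searched for 3 short motifs on both strands. TGCCGC holds the letters bound by the imprint-protecting zinc finger protein ZFP57 when methylated. GGGGCCCC is a core bound by PLAGL1, and CAGCTG is the E-box of myogenic factors. RefSeq promoter windows of 300 bases (250 before to 50 after a start) were held for 8 of the 10 genes, 14 windows in all. None was held for H19 or Cdkn1c. The ZFP57 letters stood in 6 windows of 5 genes, of which 2 are the same Mest stretch shifted by 3 bases, so 5 separate windows held them, against 11.6% of 32851 windows of all genes. The Mest window shown holds them 2 times, as did 1.53% of all windows. The PLAGL1 letters stood in the Peg3 window, against 1.08% of all windows, and the E-box in 1 other Mest window, against 16.3%. A match is a description of the letters and not a bound site. For each gene with ZFP57 or PLAGL1 letters 1 window is shown, with the matching letters in capitals; GCGGCA is TGCCGC read on the other strand.
Igf2, chr7:142661222-142661521, minus strand: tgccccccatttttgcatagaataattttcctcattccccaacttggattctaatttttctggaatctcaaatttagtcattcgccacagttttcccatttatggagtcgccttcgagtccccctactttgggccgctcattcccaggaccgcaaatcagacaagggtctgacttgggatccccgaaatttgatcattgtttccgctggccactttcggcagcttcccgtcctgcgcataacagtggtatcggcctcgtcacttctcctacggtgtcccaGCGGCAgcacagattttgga
Meg3, chr12:109540746-109541045, plus strand: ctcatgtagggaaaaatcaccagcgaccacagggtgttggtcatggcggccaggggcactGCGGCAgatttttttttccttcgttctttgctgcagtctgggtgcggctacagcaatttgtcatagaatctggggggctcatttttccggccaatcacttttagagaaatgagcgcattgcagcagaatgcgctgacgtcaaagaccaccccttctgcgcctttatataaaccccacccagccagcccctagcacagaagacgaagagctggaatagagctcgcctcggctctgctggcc
Peg3, chr7:6730370-6730669, minus strand: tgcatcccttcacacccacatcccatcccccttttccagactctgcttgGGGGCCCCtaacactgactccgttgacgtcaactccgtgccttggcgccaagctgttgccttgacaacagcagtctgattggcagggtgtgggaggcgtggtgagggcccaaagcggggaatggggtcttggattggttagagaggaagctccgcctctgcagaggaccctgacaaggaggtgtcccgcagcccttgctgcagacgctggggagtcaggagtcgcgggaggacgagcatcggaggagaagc
Zim1, chr7:6696383-6696682, minus strand: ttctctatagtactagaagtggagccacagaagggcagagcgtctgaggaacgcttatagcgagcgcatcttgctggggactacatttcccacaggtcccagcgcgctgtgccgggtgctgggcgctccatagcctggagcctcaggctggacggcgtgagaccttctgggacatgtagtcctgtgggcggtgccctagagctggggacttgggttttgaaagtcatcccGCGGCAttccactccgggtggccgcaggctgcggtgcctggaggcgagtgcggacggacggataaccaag
Plagl1, chr10:13090582-13090881, plus strand: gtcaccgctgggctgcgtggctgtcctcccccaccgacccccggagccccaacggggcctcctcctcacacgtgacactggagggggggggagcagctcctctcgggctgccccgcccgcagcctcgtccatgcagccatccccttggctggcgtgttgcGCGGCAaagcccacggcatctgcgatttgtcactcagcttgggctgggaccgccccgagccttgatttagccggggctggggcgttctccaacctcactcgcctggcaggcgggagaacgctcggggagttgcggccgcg
Mest, chr6:30737800-30738099, plus strand: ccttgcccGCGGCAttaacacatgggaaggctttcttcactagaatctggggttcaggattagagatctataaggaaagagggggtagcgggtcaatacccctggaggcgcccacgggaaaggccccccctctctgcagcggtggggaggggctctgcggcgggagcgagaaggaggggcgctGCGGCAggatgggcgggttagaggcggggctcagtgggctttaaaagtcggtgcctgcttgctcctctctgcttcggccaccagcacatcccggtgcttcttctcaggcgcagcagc
The number of CpG pairs in the 14 windows ran from 0 in Rian to 34 in Igf2r, against a median of 7 over all windows.

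The central comparison was of cKO with control muscle. The 8 genes read above the dim limit on all 24 arrays were all higher in cKO quadriceps (limma, Benjamini-Hochberg adjusted p under 0.05 over all 15999 genes), where 22.3% of all genes were called higher and 17.7% lower. The same 8 were higher in cKO soleus, where 13.2% of all genes were called higher and 9.94% lower. Rian was also called in both muscles, but it passed the dim filter only through cKO arrays and its soleus call was lost in 11 alternatives, so it is left out of these counts. Over all genes, 8.44% were higher in both muscles. The median log2 change of the 8 genes was 1.70 in quadriceps and 1.34 in soleus, against -0.01 and -0.02 over all genes. The genes were named with earlier results of these data known, so these counts are a description and not independent evidence of a direction. In each muscle these 8 genes had every cKO array above every control array, where 10.1% of all genes did so in quadriceps and 7.82% in soleus. Among them the 4 maternally expressed genes had a median change of 1.71 in quadriceps and 1.34 in soleus, and the 4 paternally expressed genes 1.59 and 1.27.

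**Figure D1:**
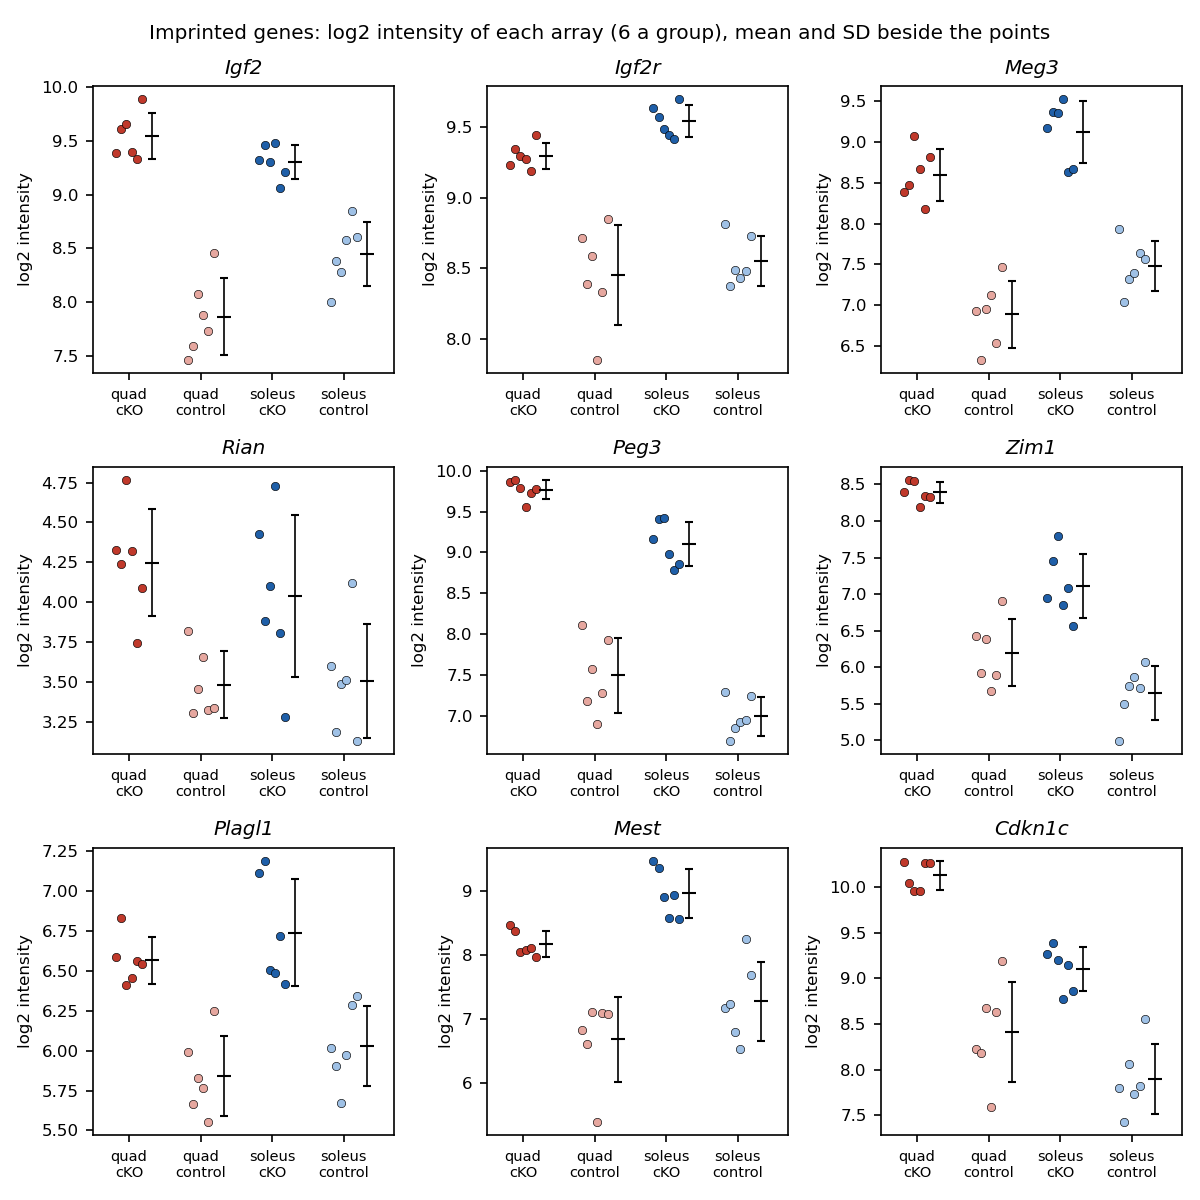
Log2 intensity (vertical axis) of the 9 genes on each of the 24 arrays, with the mean and SD of each group of 6 beside the points; each panel has its own scale. In every panel but that of Rian the cKO arrays lie above all control arrays of the same muscle, and the Mest panel shows 1 control quadriceps array at 5.39, below the other 5.

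Among these genes Igf2 (chr7:142650768-142666816) encodes the fetal growth factor IGF-II, which signals through the IGF1 receptor. Its log2 intensity was 9.33 to 9.89 (median 9.51) in cKO quadriceps and 7.46 to 8.45 (median 7.80) in control quadriceps. In soleus it was 9.06 to 9.48 (median 9.32) in cKO and 8.0 to 8.85 (median 8.48) in control mice. The lowest cKO array thus exceeded the highest control array in each muscle, and the cKO arrays of both muscles overlapped each other. Igf2 rose 3.21-fold in quadriceps (log2 change 1.68, SE 0.14, adjusted p = 5.77e-10) and 1.81-fold in soleus (0.86, SE 0.14, adjusted p = 5.11e-05).

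Igf2r (chr17:12682406-12769706) encodes the mannose 6-phosphate receptor, which binds IGF-II and carries it to the lysosome without growth signalling. The log2 intensity of Igf2r was 9.19 to 9.44 (median 9.28) in cKO and 7.85 to 8.85 (median 8.49) in control quadriceps. It was 9.42 to 9.70 (median 9.53) in cKO and 8.37 to 8.82 (median 8.48) in control soleus. Ligand and clearance receptor were therefore both higher in the same groups. Igf2r rose 1.80-fold in quadriceps (log2 change 0.84, SE 0.12, adjusted p = 1.84e-06) and 1.99-fold in soleus (0.99, SE 0.12, adjusted p = 3.34e-07).

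The other genes of the IGF axis were read from a list of 19 genes, of which 18 were kept. They were ligands, receptors, binding proteins, processing enzymes, the receptor substrates Irs1 and Irs2, and the RNA-binding protein genes Igf2bp1 and Igf2bp3. In quadriceps 7 were higher and 1 was lower in cKO, with a list median of 0.19, where 22.3% of all genes were higher and 17.7% lower with a median of -0.01. In soleus 4 were higher and none was lower, with a list median of 0.02, where 13.2% of all genes were higher and 9.94% lower with a median of -0.02. Igf1, which encodes the main IGF1 receptor ligand of adult muscle, rose by 0.69 in quadriceps (SE 0.09) and by 0.55 in soleus (SE 0.09). Its receptor Igf1r rose by 0.62 in quadriceps and 0.39 in soleus, and the binding protein Igfbp4 by 0.80 and 0.58. Stc2, an inhibitor of IGF-binding protein cleavage, was higher by 0.36 in quadriceps and 0.49 in soleus. Igfbp7 was higher by 0.44 in quadriceps and had 0.17 in soleus, which was not called.

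Meg3 (chr12:109540996-109571729) is a nuclear long noncoding RNA at the start of the maternal transcripts of the Dlk1 to Dio3 region. Meg3 arrays lay at 8.18 to 9.07 (median 8.57) in cKO and 6.33 to 7.47 (median 6.94) in control quadriceps. In soleus it was 8.63 to 9.52 (median 9.26) in cKO and 7.04 to 7.93 (median 7.48) in control mice. Meg3 rose 3.26-fold in quadriceps (log2 change 1.71, SE 0.18, adjusted p = 4.11e-08) and 3.10-fold in soleus (1.63, SE 0.18, adjusted p = 1.94e-07), with every cKO array above every control array.

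Rian (chr12:109603945-109661716), also called Meg8, is a long noncoding RNA that hosts small nucleolar RNAs and was read by a dim probe set. It lay above the dim limit (3.51 to 3.72, depending on the array) on 6 cKO and 1 control array of quadriceps and on 5 cKO and 1 control array of soleus. Its log2 intensity was 3.74 to 4.77 (median 4.28) in cKO and 3.30 to 3.82 (median 3.39) in control quadriceps, and 3.28 to 4.73 (median 3.99) in cKO and 3.13 to 4.12 (median 3.50) in control soleus. The groups overlapped in both muscles. The fitted log2 change was 0.77 in quadriceps (SE 0.19, adjusted p = 0.00223) and 0.53 in soleus (SE 0.19, adjusted p = 0.0425), but most control arrays lay under the dim limit, so neither size is exact. With those arrays set to the limit the difference was 0.62 in quadriceps and 0.27 in soleus. The soleus call was lost in 4 alternative settings (adjusted p 0.00920 to 0.0708 over the settings tried). It was also lost on leaving out any one of control soleus replicates 2, 3, 4 and 6 and cKO soleus replicates 1, 3 and 4, where the log2 change went down to 0.39 and the adjusted p up to 0.130.

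The region that holds both RNAs runs from Dlk1 to Dio3 and contains a long cluster of microRNA genes transcribed from the maternal chromosome. It was listed by position after the data had been seen. Of 47 genes with a probe set there, 40 were microRNA genes, and 20 of these were kept and 20 were too dim. Of the 20, 17 were above the dim limit on every array, and the other 3 passed the filter only with the help of cKO arrays. Of the 17, 7 were higher and 2 were lower in cKO quadriceps (list median 0.13), where 22.3% of all genes were higher and 17.7% lower. In cKO soleus 3 were higher and none was lower (list median 0.13), where 13.2% of all genes were higher and 9.94% lower. These probe sets read the hairpin or its host transcript and not the mature microRNA. Of the paternally expressed protein-coding genes, Dlk1 had a log2 change of 0.16 in quadriceps (adjusted p = 0.204) and -0.03 in soleus (adjusted p = 0.866), and Rtl1 of -0.09 and 0.24 (adjusted p = 0.559 and 0.126). Dio3, the thyroid hormone deiodinase gene at the far end, had 0.07 in quadriceps, which was not called. Its fitted change in soleus was 0.42 (adjusted p = 0.00762). Dio3 was above the dim limit on 5 cKO and 4 control arrays of quadriceps and on 5 cKO and 1 control arrays of soleus. It thus passed the filter only with the help of cKO arrays, and neither size is exact. The small nucleolar RNA DQ267102 was higher by 0.50 in quadriceps (adjusted p = 0.00162) and by 0.66 in soleus (adjusted p = 0.000127).

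Mir337, Mir127 and Mir485 were the 3 of these 17 called higher in cKO in both muscles. Mir337 was higher by 0.46 in quadriceps (SE 0.18, adjusted p = 0.0415) and 0.57 in soleus (SE 0.18, adjusted p = 0.0196). Mir127 was higher by 0.36 in quadriceps (SE 0.12, adjusted p = 0.0216) and 0.34 in soleus (SE 0.12, adjusted p = 0.0440). Mir485 was higher by 0.51 in quadriceps (SE 0.14, adjusted p = 0.00550) and 0.54 in soleus (SE 0.14, adjusted p = 0.00544). The 3 that passed the filter with the help of cKO arrays were Mir300, Mir382 and Mir487b, and their higher values in cKO follow in part from that choice. Mir300 was above the limit on 2 of the 6 control quadriceps and 3 of the 6 control soleus arrays. Mir382 was above it on none of the control quadriceps arrays, which leaves at least 1.55-fold there, and on 4 of the 6 control soleus arrays. Mir487b was above it on 3 cKO arrays of each muscle and on none of the control arrays. RefSeq mature sequences of the 3 microRNA genes higher in both muscles are shown, since these are their products. Capitals mark the seed (bases 2 to 8), and the 5 seeds are all different.
mmu-miR-337-5p: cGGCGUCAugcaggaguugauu
mmu-miR-337-3p: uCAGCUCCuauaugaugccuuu
mmu-miR-127-5p: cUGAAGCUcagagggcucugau
mmu-miR-127-3p: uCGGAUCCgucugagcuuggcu
mmu-miR-485-3p: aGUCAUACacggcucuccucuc

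**Figure D2:**
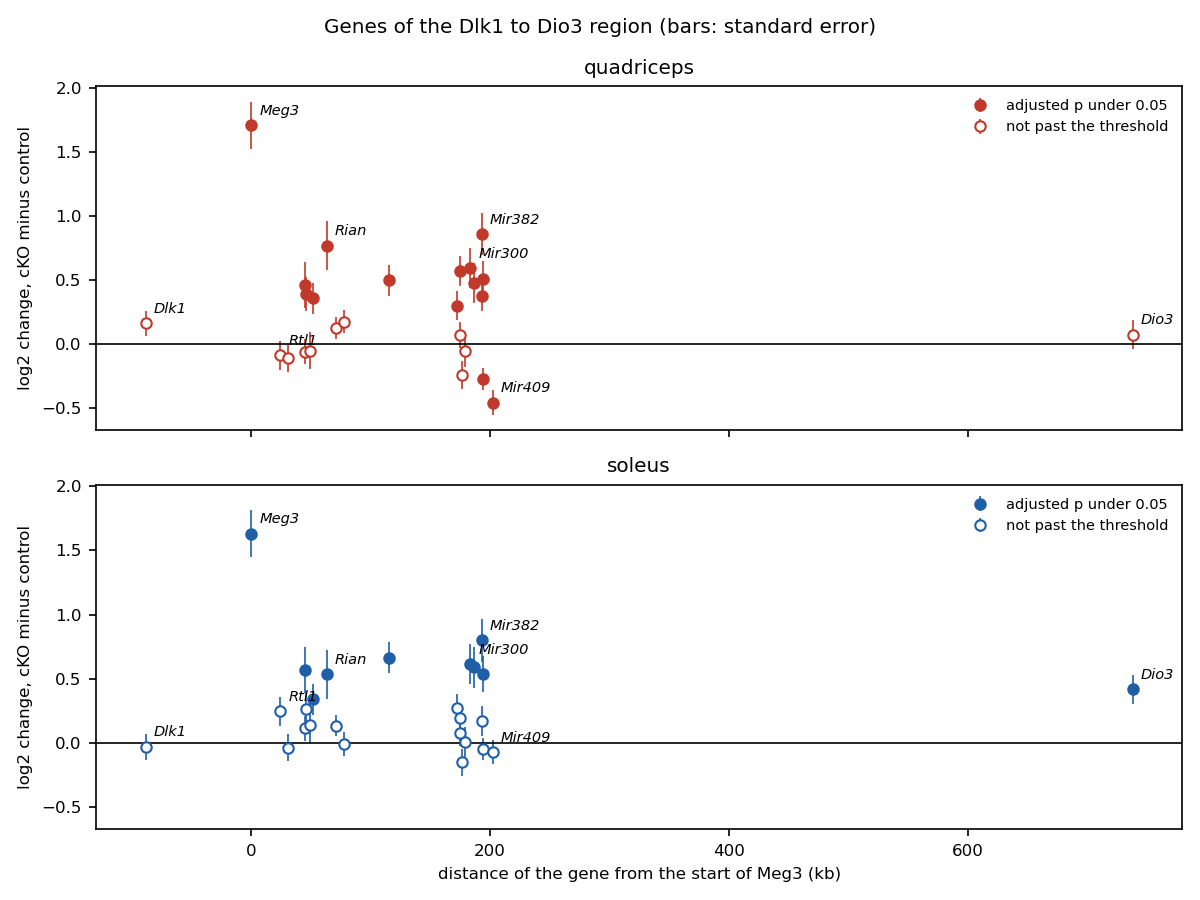
Log2 change in cKO against control (vertical axis, bars are standard errors) of the 26 kept genes of the Dlk1 to Dio3 region, by distance in kb from the start of Meg3, in quadriceps (upper panel) and soleus (lower panel). Filled points passed an adjusted p of 0.05. Meg3 stands highest in both panels, at 1.71 and 1.63, and no other gene drawn exceeds 0.86, the value of Mir382 in quadriceps. Rian, Mir300, Mir382, Mir487b and Dio3 passed the dim filter only with the help of cKO arrays, so their sizes are not exact. Probe sets annotated to several symbols are not drawn.

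Peg3 and Zim1 are adjacent zinc finger genes of the proximal chromosome 7 imprinted domain. Peg3 (chr7:6703892-6730462), a zinc finger gene known in mouse for effects on growth and nurturing behaviour and as a marker of adult stem cells, changed most of the 9 genes in each muscle. Its log2 intensity was 9.56 to 9.89 (median 9.78) in cKO and 6.90 to 8.11 (median 7.42) in control quadriceps. In soleus it was 8.79 to 9.42 (median 9.07) in cKO and 6.69 to 7.29 (median 6.93) in control mice. All cKO arrays of either muscle lay above all control arrays of both muscles. The fold was 4.83 in quadriceps (log2 change 2.27, SE 0.16, adjusted p = 1.46e-11) and 4.33 in soleus (2.11, SE 0.16, adjusted p = 1.83e-10).

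Zim1 (chr7:6674444-6696540) is expressed from the maternal copy, opposite to Peg3. Its log2 intensity was 8.19 to 8.56 (median 8.37) in cKO and 5.67 to 6.91 (median 6.15) in control quadriceps, and 6.57 to 7.79 (median 7.02) in cKO and 4.99 to 6.08 (median 5.73) in control soleus. The cKO quadriceps arrays lay above the cKO soleus arrays. Zim1 rose 4.58-fold in quadriceps (log2 change 2.19, SE 0.19, adjusted p = 1.24e-09) and 2.76-fold in soleus (1.47, SE 0.19, adjusted p = 2.11e-06).

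Plagl1 (chr10:13090832-13131694) encodes the zinc finger transcription factor ZAC1, which is known in mouse to raise expression of other imprinted genes. Plagl1 intensity was 6.41 to 6.83 (median 6.55) in cKO and 5.55 to 6.25 (median 5.80) in control quadriceps, and 6.42 to 7.19 (median 6.61) in cKO and 5.67 to 6.34 (median 5.99) in control soleus. The groups were separate in each muscle by a small margin, with the lowest cKO soleus array at 6.42 and the highest control soleus array at 6.34. Plagl1 rose 1.65-fold in quadriceps (log2 change 0.72, SE 0.14, adjusted p = 0.000128) and 1.63-fold in soleus (0.71, SE 0.14, adjusted p = 0.000286).

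Mest (chr6:30733506-30748466), also called Peg1, encodes a protein of the alpha/beta hydrolase fold. Arrays read Mest at 7.98 to 8.47 (median 8.09) in cKO and 5.39 to 7.11 (median 6.95) in control quadriceps. In soleus it was 8.56 to 9.47 (median 8.93) in cKO and 6.53 to 8.25 (median 7.21) in control mice. The SD in quadriceps was 0.20 in cKO and 0.66 in control mice, and 0.22 for the control arrays without replicate 4, the array at 5.39. Mest rose 2.80-fold in quadriceps (log2 change 1.49, SE 0.26, adjusted p = 4.47e-05) and 3.23-fold in soleus (1.69, SE 0.26, adjusted p = 1.54e-05).

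Cdkn1c (chr7:143458339-143461059) encodes p57, an inhibitor of cyclin-dependent kinases. For Cdkn1c the log2 intensity was 9.96 to 10.28 (median 10.15) in cKO and 7.59 to 9.19 (median 8.43) in control quadriceps. It was 8.77 to 9.39 (median 9.18) in cKO and 7.43 to 8.56 (median 7.81) in control soleus. Cdkn1c rose 3.28-fold in quadriceps (log2 change 1.71, SE 0.19, adjusted p = 5.40e-08) and 2.31-fold in soleus (1.21, SE 0.19, adjusted p = 2.14e-05). Of a list of 12 other cyclin-dependent kinase inhibitors, cyclins and partners, 11 had a probe set of their own and all 11 were kept. Of these, 6 were higher and 1 was lower in cKO quadriceps (list median 0.41), against 22.3% and 17.7% of all genes. In cKO soleus 3 were higher and none was lower (list median 0.15), against 13.2% and 9.94% of all genes. The genes called higher were Rb1, kinases and cyclins. The inhibitors among the 11, Cdkn1b, Cdkn2a, Cdkn2b, Cdkn2c and Cdkn2d, were not called higher in either muscle. Cdkn1a, another inhibitor, was not among the 11 genes read. Cdkn2b was the lower gene in quadriceps, at -0.31 (adjusted p = 0.0179). These inhibitors are named here after their values were seen. Rb1, which encodes the retinoblastoma protein those kinases phosphorylate, rose by 2.04 in quadriceps (SE 0.10) and 1.07 in soleus (SE 0.10). Cdk4 rose by 0.65 and 0.50, Ccnd3 by 0.47 and 0.34, and Ccnd1 by 0.69 in quadriceps.

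The next comparison asked whether the cKO change differed between the muscles. The difference was tested as the quadriceps change minus the soleus change, for which 12.3% of all genes were called, 7.39% with the larger change in quadriceps. Of the 9 genes 1 was called, Igf2, whose change was larger in quadriceps by 0.83 (SE 0.20, 95% confidence interval 0.41 to 1.24, adjusted p = 0.00771). Zim1 had a difference of 0.73 (SE 0.27, 95% confidence interval 0.16 to 1.29, adjusted p = 0.0811) and Cdkn1c of 0.50 (SE 0.27, -0.04 to 1.05, adjusted p = 0.229). The Zim1 call depended on the fit: the adjusted p was 0.0379 with both muscles of an animal as a random block and 0.00754 on dropping the 3 low-weight arrays. It ranged from 0.00754 to 0.160 over the settings. Leaving out control quadriceps replicate 6, control soleus replicate 1 or cKO soleus replicate 3 gave differences of 0.87, 0.86 and 0.86, all called (adjusted p = 0.0194, 0.0249 and 0.0307). For the other 6 genes the difference lay between -0.20 (Mest, -0.95 to 0.54) and 0.23 (Rian, -0.32 to 0.79), and intervals this wide do not show equal changes. Without control quadriceps replicate 4 the Mest difference was -0.46 (adjusted p = 0.342).

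**Figure D3:**
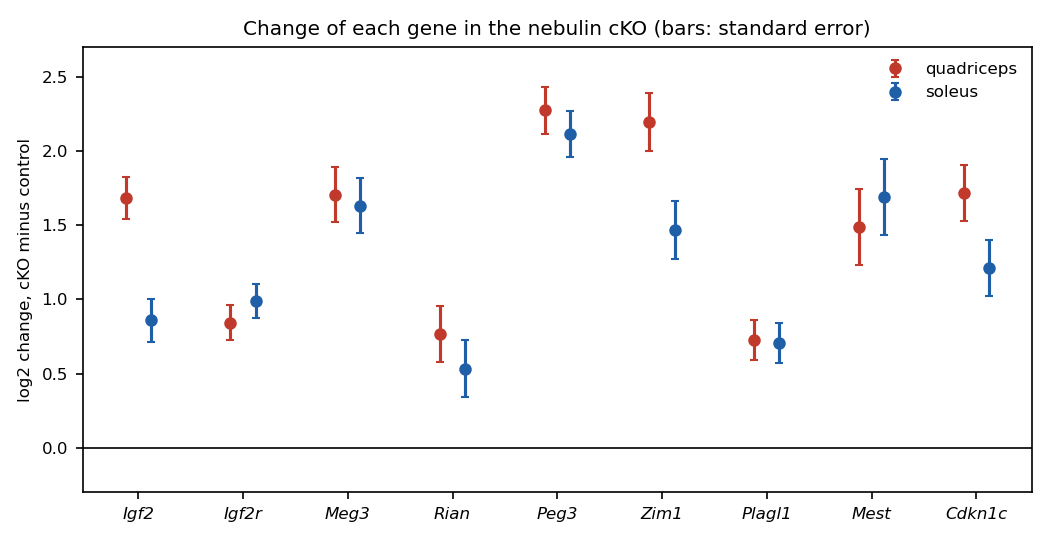
Log2 change in cKO against control (vertical axis, bars are standard errors, 6 arrays a group) of the 9 genes in quadriceps and soleus. Peg3 changed most in each muscle (2.27 and 2.11), and Igf2 is the gene whose changes in quadriceps and soleus, 1.68 and 0.86, passed the test of a difference. Rian passed the dim filter only with the help of cKO arrays, so its sizes are not exact.

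Levels also differed between the muscles of control mice. In controls, Igf2 averaged 8.45 ± 0.30 in soleus and 7.86 ± 0.36 in quadriceps (SD, n = 6 each), a difference of 0.59 (SE 0.14, adjusted p = 0.00225). Meg3 was higher in soleus by 0.59 too (SE 0.18, adjusted p = 0.0140). In control soleus 3 genes were lower: Cdkn1c by a log2 difference of -0.52 (adjusted p = 0.0352), Peg3 of -0.50 (adjusted p = 0.0146) and Zim1 of -0.55 (adjusted p = 0.0293). Over all genes 33.5% were called between the control muscles, 15.2% higher and 18.3% lower in soleus. The groups overlapped for all 9 genes, where 3.94% of all genes lay wholly higher and 7.73% wholly lower in soleus. Plagl1 differed by 0.19, Igf2r by 0.10 and Rian by 0.02, none of them called. Mest differed by 0.59, which was not called without a block (adjusted p = 0.0761) and was called with animal as a random block (adjusted p = 0.0324). The Mest difference was 0.33 without control quadriceps replicate 4 (adjusted p = 0.232) and 0.74 without control soleus replicate 4 (adjusted p = 0.0291). The Cdkn1c call was lost on leaving out any one of control quadriceps replicates 3, 5 and 6 and control soleus replicates 1, 2, 4 and 5 (adjusted p up to 0.112). The Zim1 call was lost on leaving out any one of control quadriceps replicates 1, 3 and 6 and control soleus replicates 1 and 2 (adjusted p up to 0.0917). The SDs of the control groups were 0.37 to 0.55 for these 2 genes.

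Ordered by mean within each gene, control quadriceps was lowest for Igf2, Igf2r, Meg3, Rian, Mest and Plagl1, and control soleus was lowest for Peg3, Zim1 and Cdkn1c. For Igf2r, Rian, Mest and Plagl1 the control muscles were not called different in the main fit, so which was lowest is not settled. The highest mean was in cKO quadriceps for Igf2, Rian, Peg3, Zim1 and Cdkn1c and in cKO soleus for Igf2r, Meg3, Mest and Plagl1. The arrays of the cKO muscles overlapped for Igf2, Rian, Plagl1, Igf2r and Meg3. They did not overlap for Peg3, Zim1 and Cdkn1c, which were higher in cKO quadriceps, or for Mest, which was higher in cKO soleus. Over all genes 10.6% lay wholly higher and 5.33% wholly lower in cKO quadriceps than in cKO soleus, and the difference between the cKO muscles was not tested.

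The genes whose profile over the 24 arrays was closest to each member's were found by the mean absolute difference of log2 values, each gene centred on its own mean. The search was made for the 7 genes whose group means spanned at least 1, which left out Rian (0.77) and Plagl1 (0.90). Zim1 was closest to Cdkn1c (0.29), then to Tnfrsf22 (0.29), a decoy receptor gene 174 kb from Cdkn1c, and to its own neighbour Peg3 (0.33). Igf2 was closest to Olfml2a (0.22), Hprt (0.23), a purine salvage enzyme gene, and Tnnt2 (0.23), the troponin T of cardiac and embryonic skeletal muscle. Meg3 was closest to Itga5 (0.27), a fibronectin receptor subunit gene, Micall1 (0.28) and Cul7 (0.28), and Mest also to Itga5 (0.36) and Cul7 (0.36), followed by Capn6 (0.38). Peg3 was closest to Tbc1d31 (0.22), Cilp (0.22), which encodes a cartilage matrix protein, and Trp63 (0.27). Cdkn1c was closest to Adamts20, Lrrc17 and Cd82 (0.26 to 0.27), and Igf2r to Ehd4 (0.12), Dusp27 (0.14) and Zmat3 (0.14). These neighbours had log2 changes of at least 0.55 in quadriceps and 0.52 in soleus, so the likeness follows the same split of the arrays by genotype.

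Within single groups, adjacent genes were compared over the 6 arrays, which share array quality. Peg3 and Zim1 had Pearson's r of 0.82 in cKO quadriceps (exact permutation p = 0.0333, Spearman's rho 0.89) and 0.88 in control quadriceps (exact permutation p = 0.0278, rho 0.89), 0.80 in cKO soleus (p = 0.0611, rho 0.66) and -0.17 in control soleus (p = 0.772, rho -0.03). Meg3 and Rian had r of 0.77 and 0.29 in cKO and control quadriceps and 0.75 and 0.46 in cKO and control soleus. None of the 8 relations passed after Benjamini-Hochberg adjustment, with the smallest adjusted p at 0.133. Each r was also computed without the 2 arrays farthest from the group median of the first gene. Peg3 with Zim1 then gave 0.25, 0.99, 0.07 and 0.86 in the same order of groups. Meg3 with Rian gave -0.69, 0.68, 0.27 and 0.37. Leaving out those arrays narrows the range of the first gene by construction, so these values do not show what a relation rested on.

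Of a list of 59 other imprinted genes, 45 had a probe set and 42 were kept. In quadriceps 13 were higher, 7 were lower and 22 were not called (list median -0.01), where 22.3% of all genes were higher and 17.7% lower with a median of -0.01. In soleus 9 were higher, 2 were lower and 31 were not called (list median 0.08), where 13.2% of all genes were higher and 9.94% lower with a median of -0.02. Those higher in soleus include Dio3, which passed the dim filter only with the help of cKO arrays. Peg10, a retrotransposon-derived gene of the chromosome 6 imprinted cluster, was higher by 1.02 in quadriceps and 1.10 in soleus (SE 0.13 each). Pon2, a paraoxonase of the same cluster, was higher by 0.78 in quadriceps and 1.13 in soleus. Its neighbour Pon3 fell on the log2 scale by 0.55 in quadriceps and 0.64 in soleus. Copg2, a vesicle coat protein gene next to Mest, was higher by 0.72 in quadriceps and 0.79 in soleus, and Ppp1r9a by 0.59 and 0.29. For the difference between muscles 1 was higher and 6 were lower (7.39% and 4.89% of all genes), led by the amino acid transporter gene Slc38a4, at -1.07 (SE 0.16). Of 12 genes that set or keep imprints, against the same shares of all genes, 5 were higher in cKO quadriceps and 2 in cKO soleus, and none was lower. Among them the maintenance DNA methyltransferase gene Dnmt1 rose by 0.47 in quadriceps and 0.44 in soleus, and Trim28 by 0.19 and 0.27. Zfp445 rose by 0.52 in quadriceps and had 0.03 in soleus, which was not called.

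**Figure D4:**
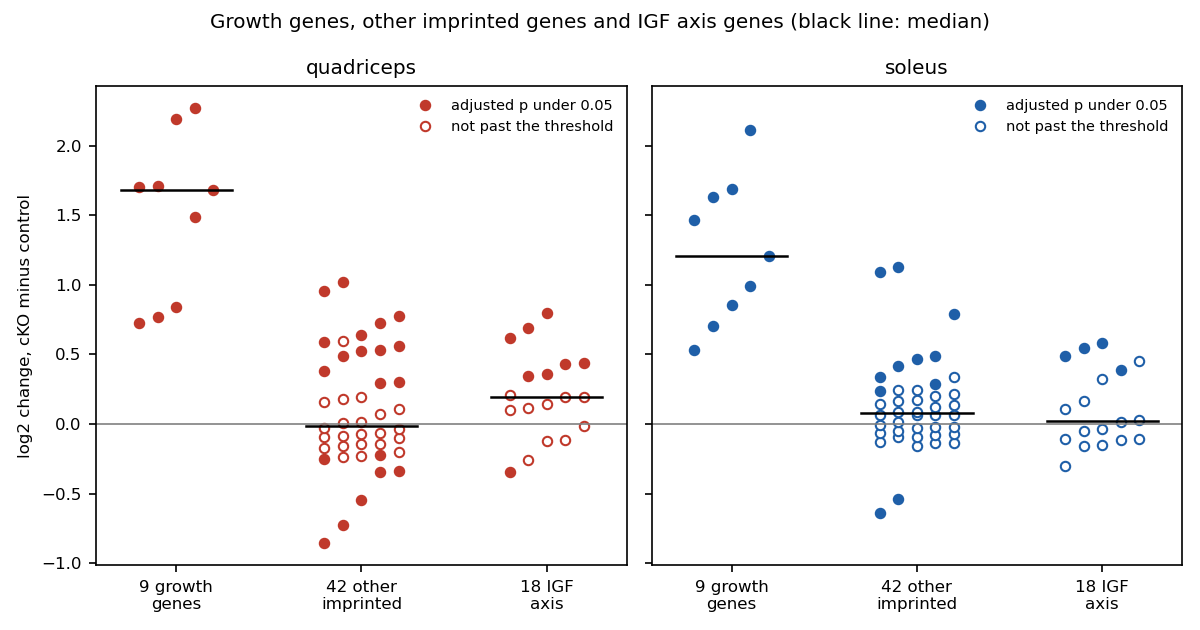
Log2 change in cKO against control (vertical axis) of the 9 measured growth genes, 42 other imprinted genes and 18 genes of the IGF axis in quadriceps (left) and soleus (right); each point is a gene, filled where the adjusted p was under 0.05, and black lines are medians. The 9 genes have medians of 1.68 and 1.21, the other imprinted genes of -0.01 and 0.08, and the IGF axis of 0.19 and 0.02. Rian among the 9 and Dio3 among the 42 passed the dim filter only with the help of cKO arrays, so their sizes are not exact. Without Rian the medians of the growth genes are 1.70 and 1.34.

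Whole muscle holds fibres and other cells, so fewer cells of a type and less RNA per cell cannot be told apart. The counts of marker genes that follow stand against 22.3% of all genes called higher and 17.7% lower in quadriceps, and 13.2% higher and 9.94% lower in soleus, and with lists this short a count of 1 is near those shares. Genes of embryonic and regenerating muscle moved with the growth genes: 12 of 15 were higher and none was lower in each muscle (list medians 1.06 in quadriceps and 1.14 in soleus). Of 9 satellite cell markers, 8 were higher in cKO quadriceps and 4 in cKO soleus, with summed intensity of 1423 to 1670 in cKO and 893 to 1098 in control quadriceps and of 1162 to 1526 in cKO and 971 to 1174 in control soleus. Pax7, which marks quiescent satellite cells and is named here after its values were seen, rose by 0.40 in quadriceps (adjusted p = 0.00275) and had 0.23 in soleus (adjusted p = 0.109). Of 8 macrophage markers, 6 were higher in each muscle, with summed intensity of 1437 to 1726 in cKO and 719 to 1258 in control quadriceps and of 1011 to 1470 in cKO and 668 to 929 in control soleus. Of 8 kept markers of fibro-adipogenic progenitors, the connective tissue cells of muscle, 6 were higher and 1 was lower in quadriceps and 4 were higher in soleus, with overlapping sums in both muscles. Slow fibre genes were higher in cKO quadriceps, 6 of 6, and in soleus 2 were higher and 1 was lower. Adipocyte markers were higher in quadriceps, 4 of 6, and none was called in soleus, while fast fibre genes were lower, 3 of 7 in quadriceps and 7 of 7 in soleus. Endothelial markers were lower in 4 of 6 in soleus, tendon markers higher in 1 of 5 in each muscle and lower in 3 of 5 in soleus, and Schwann cell markers lower in 1 of 3 in quadriceps. No gene of these marker lists was dim on all arrays. Myod1, Myf5 and Cdh15 stand in both the embryonic muscle and the satellite cell list, and Calcr and Dcn among both the markers and the other imprinted genes. The part of these cells and fibre types in the changes of the growth genes was not tested.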

How the data were processed

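RNA of 24 muscles was measured on Affymetrix arrays, with 6 arrays in each of 4 groups set by the labels. Per the labels' protocols, muscle was kept in RNAlater, RNA was extracted with a Qiagen fibrous tissue kit and labelled with biotin by the WT Plus reagent. Per the submitters' processing notes, values were made with RMA in Affymetrix Expression Console, with genome build mm10. The deposited values are linear intensities of 1.76 to 10075, already normalized by the authors, and log2 was taken here with no further normalization. RMA values are relative within the array set, so levels of different genes cannot be compared. Arrays have no depth, and their number limits the precision.

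Of 35557 probe sets, 21789 had 1 symbol in the platform annotation, 1621 had several and 12147 had none listed, and 21698 were matched to RefSeq GRCm38.p6 by Entrez number. A gene was read by its probe set with the highest mean. Group means of all 24 arrays were fitted with limma 3.58.1 in R 4.3.3 (lmFit, eBayes; 20 residual degrees of freedom), with Benjamini-Hochberg adjustment over 15999 genes. On simulated quadriceps data of 15999 genes, 80% of genes changed by 0.5 were called, 98% of those changed by 1 and 100% of those changed by 2 (50 genes a size and direction). Pairs of genes were compared by exact two-sided permutation within groups. The planned comparison of Igf2 with H19 could not be run without an H19 probe set.

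The labels give the same replicate numbers to both muscles. Deviations from the group means of same-numbered quadriceps and soleus correlated at 0.22 to 0.45 in cKO and 0.16 to 0.31 in control mice. All pairs were over 0.1, and each quadriceps array correlated best with the soleus array of its own number. Same-numbered arrays of cKO and control mice, which are different animals, also correlated in part. The range was 0.04 to 0.32 between the soleus groups and -0.15 to 0.17 between the quadriceps groups. Across muscles it was 0.04 to 0.27 for control quadriceps with cKO soleus and -0.04 to 0.28 for cKO quadriceps with control soleus. The numbers were still taken to pair the muscles of an animal, though the label ages of 1 pair differ. What else the numbers stand for was not tested. The same-numbered cKO and control arrays of a muscle were not taken as pairs.

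The genes and lists were chosen with earlier results of these data known. The text names all members, up to 4 genes with the smallest p of each list in a comparison, and the 3 closest profiles of each member whose group means spanned at least 1. Alternatives tried were other centring and normalization, dim filters, array weights, a robust trend, each muscle alone, replicate blocks, probe set averaging and leaving out arrays.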

Additional observations from a re-analysis of the deposited data

Results flagged for a closer look

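Among the 36 sets of 6 arrays (9 genes in 4 groups), 1 array stood apart from the rest of its group by Dixon's test, where chance alone gives about 1 in 20. It was control quadriceps replicate 4 for Mest, at 5.39 against 6.62 to 7.11 on the other 5 arrays. It was also the array of lowest quality weight (0.207). Without it the Mest change in quadriceps was 1.23 (adjusted p = 6.75e-05), against 1.49 with it, and the Mest difference between the muscles' changes was -0.46 without it, against -0.20 with it.

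The cKO change of Igf2 was larger in quadriceps than in soleus by 0.83 in the test of the difference itself (adjusted p = 0.00771, and 0.000141 to 0.0163 over all settings and left-out arrays).

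Of the probe sets annotated to several symbols, 3 lie in or beside the loci described and were not used above. They were fitted among all 26006 kept probe sets. The probe set shared by the small nucleolar RNA AF357355 and Rian was read above the dim limit on all arrays, unlike the Rian probe set. It averaged 6.87 ± 0.26 in cKO and 6.44 ± 0.09 in control quadriceps, and 7.51 ± 0.17 in cKO and 6.57 ± 0.21 in control soleus (SD, n = 6 each). It was higher in cKO by 0.43 in quadriceps (adjusted p = 0.00395) and by 0.94 in soleus (adjusted p = 9.92e-07), and the change was smaller in quadriceps by a difference of -0.51 (adjusted p = 0.0361). The probe set shared by Mirg and Mir410, at the far end of the same cluster, was above the dim limit on 5 cKO and no control arrays of quadriceps and on 6 cKO and no control arrays of soleus. It was thus kept through the group in which it is high, and its fitted changes (1.72 in quadriceps and 2.38 in soleus) are no test. It averaged 4.18 in cKO and 2.46 in control quadriceps, and 4.64 in cKO and 2.26 in control soleus. Only a bound holds: at least 1.50-fold higher in quadriceps and at least 1.93-fold higher in soleus. The probe set listed under both Mir675, which lies within H19 on chromosome 7, and Supt6 on chromosome 11 was higher by 0.84 in cKO quadriceps (adjusted p = 4.87e-06). In soleus it had 0.28 (adjusted p = 0.0945), and the difference between muscles was 0.56 (adjusted p = 0.0306). Which of its 2 genes it reads was not tested.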

How the results depend on the processing

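In quadriceps all 9 genes kept their direction and call in every alternative in which they were tested (332 values of single genes). In soleus 321 of 332 did, and the 11 lost calls were all of Rian. Rian was removed as too dim by the stricter dim filter, which gives it no value there. It passed the main dim filter only with the help of cKO arrays, so its calls are not support. In soleus the adjusted p of Rian was 0.0687 with 75th percentile centring, 0.0708 with each muscle alone, 0.0559 with a robust trend and 0.0644 with all probe sets. Zim1's difference between muscles was also called with array weights (0.0206). Between control muscles, the Cdkn1c call was lost with quantile normalization (0.0679), the Zim1 call without the 3 arrays of lowest weight (0.112), and Mest was called with 75th percentile centring (0.047), quantile normalization (0.0459) and number as a fixed term (0.0313). The causes were not tested.

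With animal as a random block (consensus correlation 0.195), chosen from the pairing of the muscles, the difference between muscles was called for 2952 genes and 2 of the 9, against 1966 and 1 without the block. Mest was then called between control muscles (adjusted p = 0.0324), and the block changed no other call of the 9 genes. Array weights gave 3570 genes and 2 of the 9, and leaving out the 3 arrays of lowest weight, chosen after seeing the data, 3675 and 2. Taking all probe sets, also chosen after seeing the data, gave 8200 calls between control muscles among 26006 tested, against 5362 among 15999.

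Leaving out each array in turn gave 5692 to 7240 genes and 9 to 9 members in quadriceps, 3235 to 4277 and 8 to 9 in soleus, 1576 to 2856 and 1 to 2 for the difference, and 4745 to 5759 and 3 to 5 between control muscles. Signs turned only for values near 0 that were not called. The difference of Plagl1 (0.02) was -0.0261 with median centring, -0.0299 with 75th percentile centring and -0.0941 with quantile normalization, and ran from -0.048 to 0.107 with arrays left out. That of Meg3 ran from -0.037 to 0.190. Between control muscles Igf2r (0.10) was -0.0066 with median centring, -0.0049 without the 3 arrays and -0.021 to 0.179 with arrays left out. Rian (0.02) was -0.084, -0.064 with quantile normalization and -0.101 to 0.098.

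Scaling moved the split of all calls. The share of calls that were higher was 55.7% in quadriceps as deposited, 53.0% with median centring, 37.5% with 75th percentile centring and 47.3% with quantile normalization. It was 57.0%, 66.9%, 47.3% and 52.5% in soleus, 60.2%, 45.6%, 48.7% and 52.0% for the difference, and 45.4%, 22.3%, 56.2% and 44.8% between control muscles. Median centring moved the median of all genes between control muscles to -0.07, against 0.03 as deposited.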

Other observations

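The imprinted microRNA genes inside 2 of the growth genes were read by probe sets of their own. Mir483, within Igf2, did not rise with its host gene. It averaged 5.73 ± 0.16 in cKO and 6.10 ± 0.30 in control quadriceps (log2 change -0.37, SE 0.11, adjusted p = 0.00724), and 5.84 ± 0.14 in cKO and 5.93 ± 0.09 in control soleus (-0.08, SE 0.11, adjusted p = 0.626; SD, n = 6 each). Mir335, within Mest, was too dim to be kept, with means of 3.44 in cKO and 3.76 in control quadriceps and of 3.30 in cKO and 3.50 in control soleus. These probe sets read the hairpin or its host transcript, not the mature microRNA.

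Further imprinted genes are named here after their values were seen. Grb10, the adaptor protein gene that inhibits insulin and IGF1 receptor signalling, was higher in cKO by 0.56 in quadriceps (SE 0.12, adjusted p = 0.000507) and 0.47 in soleus (SE 0.12, adjusted p = 0.00454). Ndn, which encodes necdin, known in mouse muscle for a role in satellite cell-dependent growth, was higher by 0.53 in quadriceps (adjusted p = 0.000557) and 0.49 in soleus (adjusted p = 0.00201). Asb4 and Slc38a4 moved the other way in quadriceps, by -0.73 and -0.86, and of these Asb4 was also lower in soleus, by -0.54. In microRNA genes of the Dlk1 to Dio3 region the changes in quadriceps were not all of one sign: Mir409 was lower by a log2 change of -0.45 (adjusted p = 0.000437) and Mir668 of -0.27 (adjusted p = 0.0145), with -0.07 and -0.05 in soleus (adjusted p = 0.638 and 0.738).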
